A study of Mus musculus with 3 samples.

Results

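The chemokines Ccl2, Ccl7, Ccl8 and Ccl12 were followed in single macrophages of the mouse heart, at day 11 after myocardial infarction and at steady state. They were taken by symbol from the gene tables of 3 libraries, where all 4 were found among 27998 shared genes. They are secreted proteins that attract monocytes and other leukocytes through the receptor CCR2. In the injured heart, CCR2 is known for bringing blood monocytes into the tissue, where they become macrophages, whereas long-lived resident macrophages are largely CCR2 negative. Ccl2 is the main monocyte attractant of the family, Ccl7 is a close relative that also binds other CC receptors, Ccl12 is a mouse CCR2 ligand, and mouse Ccl8 is also known to act through CCR8.

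The study asked how resident macrophages that renew themselves in the heart behave after infarction, and RNA was counted with a droplet method that reads transcript 3′ ends (10x Chromium, v2 chemistry). The day 11 library and the steady-state library held macrophages of Cx3cr1CreER-YFP/+:R26Td/+ mice, in which Cre under the Cx3cr1 gene turns on TdTomato; the first came from infarcted and the second from uninjured hearts. The other library, here the MF-DC library, was sorted from hearts of wild-type mice without injury and mixed CD64-CD11c+ dendritic cells (DCs) with CD45+CD64+CD11b+ macrophages, and its macrophages served as a second steady-state reference. All mice were C57BL/6 aged 8 to 12 weeks, the hearts of all groups were digested with flavopiridol, an inhibitor of transcription, and whether animals were pooled is not stated. Each group had 1 library, so there is no replicate error and no p-value. All intervals are 95% and cover counting error only: they treat every UMI (a counted molecule) as independent, which cells with many UMIs of 1 gene are not.

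The libraries held 4697 barcodes at day 11, 1806 at steady state and 1780 in the MF-DC library, with a median of 8224, 10738 and 7164 UMIs per barcode. After filtering and removal of likely doublets, clustering without the 4 ligands gave a macrophage compartment of 4358, 1686 and 1021 cells. Macrophage genes such as C1qa, a complement subunit, stood at 6653 UMIs per 1000000 (CPM) at day 11 and 7240 CPM at steady state. Unnamed clusters made up 74.6% of the compartment at day 11, 42.6% at steady state and 84.8% in the MF-DC library. The libraries shared 7 to 11 barcodes pairwise.

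The 4 genes lie on the forward strand of chromosome 11 (mm10, GENCODE vM21) within 81229 bases, and each transcript has 3 exons. Ccl2 (ENSMUSG00000035385) spans chr11:82035571-82037453 and Ccl7 (ENSMUSG00000035373) chr11:82045712-82047525, with 8258 bases between them. Ccl11 follows Ccl7 and divides the locus: Ccl12 (ENSMUSG00000035352) at chr11:82101845-82103400 and Ccl8 (ENSMUSG00000009185) at chr11:82115185-82116799 lie beyond it, with 11784 bases between them. The family is defined by a pair of adjacent cysteines, and the coding stretch of 90 bases around them is given for each member, with the cysteine codons in capitals.
Ccl2: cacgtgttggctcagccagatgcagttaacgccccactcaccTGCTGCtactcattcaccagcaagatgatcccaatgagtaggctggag
Ccl7: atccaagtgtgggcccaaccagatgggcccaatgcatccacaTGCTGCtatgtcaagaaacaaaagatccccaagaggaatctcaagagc
Ccl8: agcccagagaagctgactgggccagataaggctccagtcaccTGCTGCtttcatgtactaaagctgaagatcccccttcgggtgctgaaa
Ccl12: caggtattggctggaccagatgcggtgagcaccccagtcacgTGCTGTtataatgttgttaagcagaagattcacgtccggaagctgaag
Placed base against base on the cysteine codons without gaps, Ccl2 and Ccl12 shared 56 of the 90 bases and Ccl7 and Ccl8 shared 30. These were the ends of the range over 6 pairs. The stretch of Ccl7 is out of step with the others by a codon, which lowers its counts. They are thus not a measure of how far the members differ. The longest run of bases common to 2 whole transcripts was 23, between Ccl2 and Ccl7, so the members are not near-identical copies.

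Ccl8 was the member with the higher level at day 11. It stood at 260 CPM (255 to 265) in day 11 macrophages, against 114 CPM (109 to 118) at steady state, a ratio of 2.29 (2.19 to 2.39). Of the 4 members it alone passed 2-fold in the higher direction, which 1.63% of 5323 genes did, and none passed it in the lower direction, which 2.63% did. The median gene moved by -0.06 on the log2 scale.

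The other members were lower at day 11 than in the steady-state library. Ccl2 stood at 132 CPM (128 to 136) at day 11, against 192 CPM (186 to 198) at steady state, a ratio of 0.69 (0.66 to 0.72). Ccl7 stood at 110 CPM (107 to 113) at day 11, against 157 CPM (151 to 162), a ratio of 0.70 (0.67 to 0.74). Ccl12 stood at 236 CPM (232 to 241) at day 11, against 279 CPM (272 to 286), a ratio of 0.85 (0.82 to 0.87). None of these 3 differences reached 2-fold.

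The macrophages of the MF-DC library gave other values, and Ccl8 was higher at day 11 than in both references. They held Ccl2 at 139 CPM (130 to 148), Ccl7 at 43.0 CPM (38.2 to 48.3), Ccl8 at 46.6 CPM (41.6 to 52.1) and Ccl12 at 88.2 CPM (81.1 to 95.6). Day 11 over these macrophages gave 0.95 (0.89 to 1.02) for Ccl2, 2.56 (2.27 to 2.89) for Ccl7, 5.57 (4.97 to 6.26) for Ccl8 and 2.68 (2.47 to 2.92) for Ccl12, where 5.9% of 5087 genes were at least 2-fold higher. The directions for Ccl7 and Ccl12 are thus opposite to those against the first reference. The 2 steady-state references differed from each other: the MF-DC library over the steady-state library gave 0.72 for Ccl2, 0.27 for Ccl7, 0.41 for Ccl8 and 0.32 for Ccl12, with 3 of 4 members at least 2-fold lower, as were 8.25% of 5272 genes. Ccr2-positive cells were 52.6% of those macrophages and Timd4-positive cells 13.7%, against 47.5% and 55.7% in the steady-state library, and genotype and gate differ as well; these cannot be told apart.

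**Figure D1:**
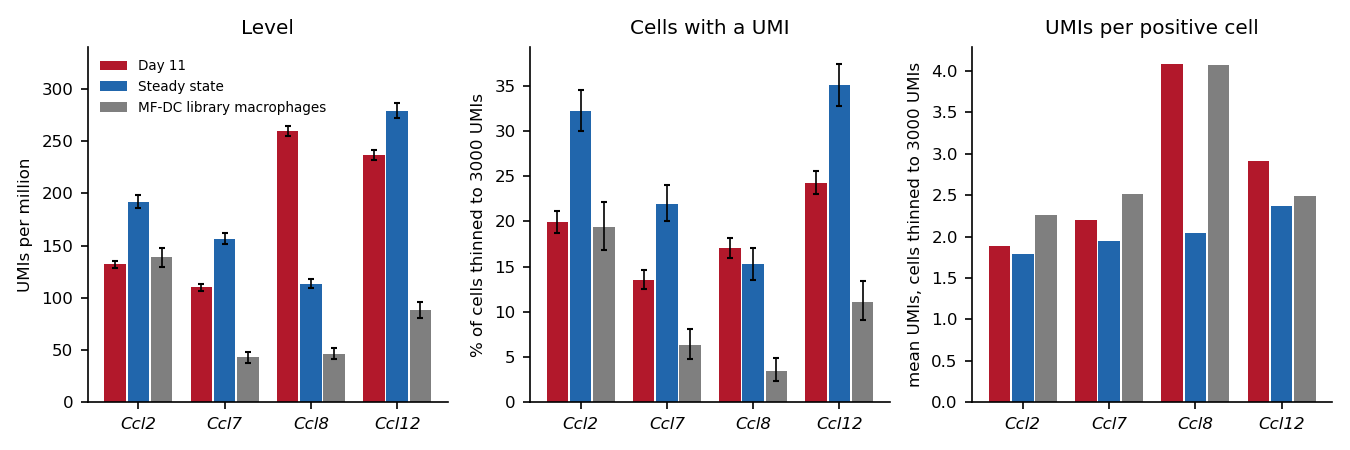
Left, level of each ligand in CPM over the macrophages of each library; middle, percent of cells thinned to 3000 UMIs that held a UMI; right, mean UMIs per positive thinned cell; error bars are exact 95% counting intervals. Ccl8 was found in 17.1% of cells at day 11 and 15.2% at steady state, with 4.08 and 2.04 UMIs per positive cell.

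The members differed in whether the share of cells or the amount per cell went with the level. To compare shares across depths, each cell was thinned to 3000 UMIs, which kept 4281 day 11 cells, 1686 steady-state cells and 871 cells of the MF-DC library. A UMI of Ccl8 was then found in 17.1% of cells (15.9 to 18.2) at day 11, against 15.2% (13.6 to 17.1) at steady state, and positive cells held 4.08 and 2.04 UMIs on average. The higher level of Ccl8 went with more UMIs per positive cell, at shares that differed little. For Ccl2 the shares were 19.9% (18.7 to 21.2) at day 11 and 32.2% (29.98 to 34.5) at steady state, with 1.89 and 1.79 UMIs per positive cell. For Ccl7 they were 13.6% (12.6 to 14.6) and 22.0% (20.0 to 24.0), with 2.20 and 1.94 UMIs. For Ccl12 they were 24.3% (23.0 to 25.6) and 35.1% (32.8 to 37.4), with 2.91 and 2.37 UMIs. The lower levels of Ccl2, Ccl7 and Ccl12 went with fewer positive cells and not with less per positive cell. Without thinning, a UMI was found at day 11 in 1585 cells for Ccl2, 1096 for Ccl7, 1303 for Ccl8 and 1747 for Ccl12, and at steady state in 1061, 865, 623 and 1104 cells.

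Free RNA bounds how these shares can be read. In the MF-DC library the cDC1-like cells, which should lack the ligands, held them at 2.17 to 4.88 CPM, and 0 to 1.58% of thinned cells had a UMI of any 1 of them. The macrophages of that library, with 3.44% for Ccl8 to 19.4% for Ccl2, lay above this at a lower median depth of 5518 UMIs, against 11523 UMIs in cDC1-like cells. In the other libraries the lymphoid cluster (T or NK-like, 31 cells at day 11 and 33 at steady state) itself carried macrophage genes, at 13.98 log2 CPM in sum against 14.64 in the resident macrophage-like cluster, and gave no clean background. Its thinned shares were 11.1% for Ccl2, 0% for Ccl7, 11.1% for Ccl8 and 18.5% for Ccl12 at day 11, and 33.3%, 33.3%, 15.2% and 39.4% at steady state. The steady-state macrophage shares lay near or below these, so neither they nor their differences from day 11 are read as shares of producing cells. Endothelial-like cells, 11 in each of these libraries, held 2 UMIs of Ccl8 and 1 of Ccl12 at day 11, and 3 of Ccl2 and 7 of Ccl12 at steady state, with no UMI of the other members. A UMI of Ccl8 was then found in 2 of 9 thinned endothelial-like cells at day 11 and in 0 of 11 at steady state.

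The RNA of each ligand was concentrated in few cells. The 10% of day 11 cells with the most UMIs of a ligand held 70.0% of all Ccl2 UMIs, 83.0% of Ccl7, 89.4% of Ccl8 and 76.8% of Ccl12, against 54.9%, 66.3%, 77.3% and 64.5% at steady state. Ccl8 was the extreme case: the top 1% of day 11 cells held 49.7% of its UMIs, 1 cell held 514, and 184 cells (4.22%) held at least 10, against 32.6%, 195 and 56 cells (3.32%) at steady state. Without that top 1% in each library the ratio of Ccl8 was 1.72, below 2-fold. For Ccl12, 239 day 11 cells (5.48%) and 136 steady-state cells (8.07%) held at least 10 UMIs.

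Macrophage status was read from UMIs of 5 markers: Timd4, a phosphatidylserine receptor, and Lyve1, a hyaluronan receptor, both known on resident heart macrophages; Ccr2, the receptor itself; Saa3, an acute-phase serum amyloid; and Gpnmb, a glycoprotein of lipid-handling macrophages. At day 11, 7.46% of cells were Timd4 positive, 12.8% Lyve1 positive, 49.7% Ccr2 positive, 9.18% Saa3 positive and 30.1% Gpnmb positive. At steady state the shares were 55.7%, 69.5%, 47.5%, 0.18% and 4.57%. Positive cells were deeper than negative cells for every marker in these 2 libraries, for example 10519 against 8000 UMIs for Timd4 at day 11, and a cell without a UMI may still express the marker.

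Ccl8 stood higher in cells with a UMI of Timd4 or Lyve1 than in cells without one. At day 11 it stood at 551 CPM in Lyve1-positive cells, against 202 CPM in Lyve1-negative cells, a ratio of 2.73 (2.63 to 2.85), where 1.49% of 5241 genes were at least 2-fold higher. At steady state the values were 130.5 CPM in Lyve1-positive and 51.8 CPM in Lyve1-negative cells, a ratio of 2.52 (2.21 to 2.88), where 1.17% of genes were at least 2-fold higher. Both fell under 2-fold, to 1.94 at day 11 and 1.83 at steady state, without the top 1% of cells, and to 1.51 and 1.57 with Lyve1 status read from thinned cells. For Timd4, Ccl8 stood at 513 CPM in positive and 233 CPM in negative cells at day 11, a ratio of 2.20 (2.09 to 2.31), where 1.71% of genes passed 2-fold higher. At steady state it stood at 133 CPM in Timd4-positive and 76.7 CPM in Timd4-negative cells, a ratio of 1.73 (1.58 to 1.90), where 0.563% of genes passed 2-fold higher. The day 11 ratio was 1.47 without the top 1% of cells and 1.46 with at least 2 UMIs of Timd4 required. In the MF-DC library the same contrasts were larger, with Ccl8 at 228 CPM in Lyve1-positive and 9.81 CPM in Lyve1-negative cells, a ratio of 23.3 (17.3 to 31.8) that was 6.91 without the top 1% of cells, where 8.85% of genes passed 2-fold higher.

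With 1 marker UMI required, the ratios of Ccl2, Ccl7 and Ccl12 lay below those of Ccl8 for both markers. In Lyve1-positive over Lyve1-negative cells at day 11 the ratios were 1.70 (1.60 to 1.81) for Ccl2, 1.94 (1.82 to 2.08) for Ccl7 and 1.34 (1.28 to 1.41) for Ccl12. At steady state they were 1.22 (1.12 to 1.32), 1.27 (1.17 to 1.39) and 0.97 (0.91 to 1.03). For Timd4 the 3 ratios lay between 1.37 and 1.57 at day 11 and between 0.94 and 1.08 at steady state. None of these reached 2-fold in either library, but with at least 2 marker UMIs required Ccl7 did at day 11, at 2.35 for Timd4 and 2.07 for Lyve1. The order for Timd4 then changed at day 11: Ccl2 stood at 1.77, Ccl7 at 2.35 and Ccl12 at 1.83, above the 1.46 of Ccl8. In the MF-DC library Lyve1-positive cells held 2.09 times as much Ccl2 as negative cells, 3.48 times as much Ccl7 and 4.41 times as much Ccl12. Timd4-positive over Timd4-negative cells there gave 2.12 for Ccl2, 3.19 for Ccl7, 14.7 for Ccl8 and 2.16 for Ccl12, where 8.94% of genes were at least 2-fold higher.

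Ccr2 status, read from 1 UMI, gave ratios of 0.70 to 1.02 in the 2 reporter libraries, lowest for Ccl8. Ccr2-positive over Ccr2-negative cells gave 1.02 (0.96 to 1.08) for Ccl2, 0.93 (0.88 to 0.99) for Ccl7, 0.70 (0.67 to 0.72) for Ccl8 and 0.94 (0.90 to 0.97) for Ccl12 at day 11. The same ratios were 0.91, 0.81, 0.71 and 0.89 at steady state. Outside a cluster led by Saa3 and fibroblast genes, described further on, the day 11 ratio of Ccl8 was 0.51 (0.48 to 0.55). At steady state, 198 of the 801 Ccr2-positive cells had no UMI of the other markers. They held Ccl2 at 116 CPM, Ccl7 at 86.9 CPM, Ccl8 at 28.6 CPM and Ccl12 at 216 CPM. Timd4-positive cells there held 190, 160.5, 133 and 273 CPM. In the MF-DC library all 4 members were at least 2-fold lower in Ccr2-positive cells, at 0.31 (0.27 to 0.36), 0.16 (0.12 to 0.21), 0.09 (0.07 to 0.13) and 0.21 (0.18 to 0.26), where 9.09% of 4841 genes were. There a cluster led by Retnla and Ear2, which made up 27.3% of its macrophages, held Ccl8 at 0.41 CPM. Without that cluster, the day 11 ratios to this reference were 0.72 for Ccl2, 1.68 for Ccl7, 3.52 for Ccl8 and 1.70 for Ccl12.

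Saa3 status could be compared only at day 11, since 3 steady-state cells had a UMI of Saa3, while 77 had one of Gpnmb. Gpnmb-positive over Gpnmb-negative cells at day 11 gave 0.65 (0.62 to 0.70) for Ccl2, 0.75 (0.71 to 0.80) for Ccl7, 1.13 (1.09 to 1.18) for Ccl8 and 0.72 (0.69 to 0.76) for Ccl12. With at least 2 Gpnmb UMIs required, Ccl12 stood at 0.40 and Ccl7 at 0.50 of the negative cells, and the ratio of Ccl8 turned to 0.92. At steady state the Gpnmb ratios were 0.98 (0.87 to 1.11) for Ccl2, 0.75 for Ccl7, 0.76 for Ccl8 and 1.07 (0.97 to 1.185) for Ccl12. The lower Ccl2 and Ccl12 of day 11 were thus not seen there. Inside the Saa3-led cluster at day 11 they were 0.92 and 1.07, against 0.58 and 0.63 outside it. Saa3-positive over Saa3-negative cells gave 0.95 (0.87 to 1.03), 0.99 (0.90 to 1.08), 1.39 (1.32 to 1.47) and 0.99 (0.93 to 1.05) for Ccl2, Ccl7, Ccl8 and Ccl12. With at least 2 Saa3 UMIs, Ccl2 stood at 0.60 and Ccl7 at 0.59. The 1.39 of Ccl8 did not hold within groups of cells. Inside the Saa3-led cluster its ratio was 0.58, and 0.78 without the top 1% of cells. Outside that cluster it was 1.71 (1.55 to 1.89), and 2.01 without the 1 top cell. Without the top 1% of cells it was 0.79 (0.66 to 0.93) there.

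**Figure D2:**
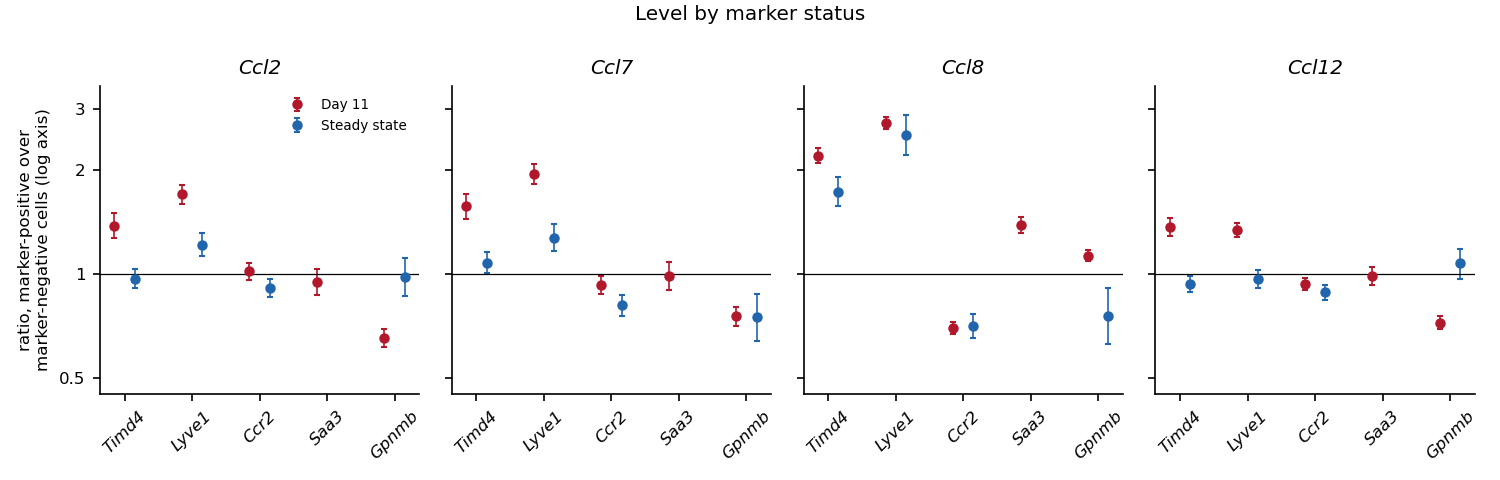
Ratio of each ligand in marker-positive over marker-negative macrophages (log axis), at day 11 (left point of each pair) and at steady state; bars are exact 95% counting intervals and the line marks 1. Ccl8 stands highest for Lyve1, at 2.73 at day 11 and 2.52 at steady state.

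Ccl8 was lower in cells with a high level of MHC class II in each library, and in the MF-DC library the other ligands passed 2-fold as well. Cells were split into 3 groups by their level of H2-Ab1, an MHC class II chain. The highest group was compared with the lowest and the middle one left out, so these ratios are unlike those by marker status. In the lowest group at day 11, the top 1% of cells held 57.1% of the Ccl8 UMIs, and 1 cell held 514. Thinned shares of Ccl8 at day 11 were 9.26% in the highest and 18.2% in the lowest group. Ccl8 stood at 96.0 CPM in the highest group at day 11, against 308 CPM in the lowest, a ratio of 0.31 (0.29 to 0.33), where 2.43% of 5104 genes were at least 2-fold lower. At steady state it stood at 44.0 CPM in the highest and 201 CPM in the lowest group, a ratio of 0.22 (0.19 to 0.25), where 2.83% of genes were. Ccl2, Ccl7 and Ccl12 gave 0.77, 0.67 and 0.85 at day 11 and 0.77, 0.64 and 0.87 at steady state. In the MF-DC library the ratios were 0.33 for Ccl2, 0.09 for Ccl7, 0.10 for Ccl8 and 0.22 for Ccl12. There 5.28% of 4737 genes were at least 2-fold lower, and Ccl8 did not stand apart from Ccl7. TdTomato UMIs were found in 57 day 11 and 218 steady-state cells. TdTomato-positive over negative cells gave ratios of 0.60 (0.48 to 0.74) for Ccl8 and 1.17 to 1.36 for the others at day 11. At steady state the ratios were 0.99 to 1.25 for the 4 ligands. The share of cells with Ccl8 was not lower at day 11. Thinned, it was 21.1% (11.4 to 33.9) in TdTomato-positive and 17.0% (15.9 to 18.2) in negative cells. The top 1% of negative cells held 50.1% of their Ccl8 UMIs, so the 0.60 rests on few cells.

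To give each cell 1 place, cells were put into exclusive classes by the first marker found in the order Timd4, Lyve1, Saa3, Gpnmb, Ccr2. At day 11 the Timd4 class was 7.46% of macrophages with 9.44% of all their UMIs, and it held 12.6% of Ccl2 UMIs, 14.1% of Ccl7, 18.6% of Ccl8 and 12.5% of Ccl12. At steady state the same class was 55.7% of cells with 65.9% of all UMIs, and it held 65.2%, 67.5%, 76.9% and 64.4%. The steady-state shares of Ccl2, Ccl7 and Ccl12 were thus close to the share of the class in all RNA, and that of Ccl8 was above it. Over the 6 classes at day 11 the highest share of any ligand was 28.6%, for Ccl2 in the Ccr2 class, which had 29.4% of all UMIs.

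Within the classes, Ccl8 was higher at day 11 in each class that could be compared, and the other ligands stayed under 2-fold. Ccl8 stood at 513 CPM at day 11 and 133 CPM at steady state in the Timd4 class, a ratio of 3.87 (3.63 to 4.12), where 0.686% of 5391 genes were at least 2-fold higher. The ratios were 4.60 (4.16 to 5.09) in the Lyve1 class, 4.34 (3.31 to 5.81) in the Ccr2 class and 8.49 (6.28 to 11.8) in cells with none of the 5 markers, where 0.926%, 1.1% and 1.8% of genes were. Few cells carried part of this: without the top 1% of cells by Ccl8 the 4 ratios were 2.05 in the Timd4 class, 3.29 in the Lyve1 class, 2.80 in the Ccr2 class and 4.08 with none of the markers, where 1 day 11 cell held 510 Ccl8 UMIs. Without a cluster led by Saa3 and fibroblast genes, described further on, they were 3.91, 1.92, 1.955 and 2.83, so that the Lyve1 and Ccr2 classes were below 2-fold. The Saa3 class had 1 steady-state cell and the Gpnmb class 13, and they were not compared. Over the same 4 classes the ratios ran from 0.84 to 1.11 for Ccl2, from 0.77 to 1.07 for Ccl7 and from 0.85 to 1.15 for Ccl12, and none passed 2-fold. For Ccl2 and Ccl7 these within-class ratios lay nearer to 1 than the ratios over all macrophages. They depended on few cells as well. Without the top 1% of cells by the ligand, Ccl2 gave 0.69, 0.77, 0.83 and 0.65 in the Timd4, Lyve1 and Ccr2 classes and with none of the markers. Each of these intervals lay below 1. In the same order Ccl7 gave 0.80, 0.90, 0.70 and 0.91. The ratios over all macrophages were lower still under this alternative, as given further on.

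Among classes of at least 10 cells, Ccl8 was higher in the Timd4 and Lyve1 classes than in the others in both libraries. The summed level of Ccl12 was highest where none of the markers was found, but at day 11 this order rested on few cells. At day 11 Ccl8 stood at 530 CPM (508 to 553) in the Lyve1 class and 513 CPM (490 to 536) in the Timd4 class, which overlapped, then at 304 CPM (286 to 323) in the Saa3 class and 273 CPM (261 to 286) with none of the markers. The Gpnmb class, at 193 CPM (184 to 201), and the Ccr2 class, at 124 CPM (118 to 131), were lowest. At steady state Ccl8 stood at 133 CPM (127 to 139) in the Timd4 class, 115 CPM (105 to 126) in the Lyve1 class, 32.2 CPM (23.3 to 43.4) with none of the markers and 28.6 CPM (21.5 to 37.3) in the Ccr2 class. Ccl12 in cells with none of the markers stood at 327 CPM (314 to 341) at day 11 and 384 CPM (352 to 419) at steady state, and at day 11 the Timd4 class, at 313 CPM (295 to 331), overlapped with it. Without the top 1% of cells by Ccl12, day 11 cells with none stood at 227 CPM, below the 256 CPM of the Lyve1 class. At steady state they stood at 264 CPM, against 245.5 CPM in the Lyve1 class. Thinned shares at day 11 were 27.5% with none, 33.0% in the Timd4 class and 35.3% in the Lyve1 class.

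**Figure D3:**
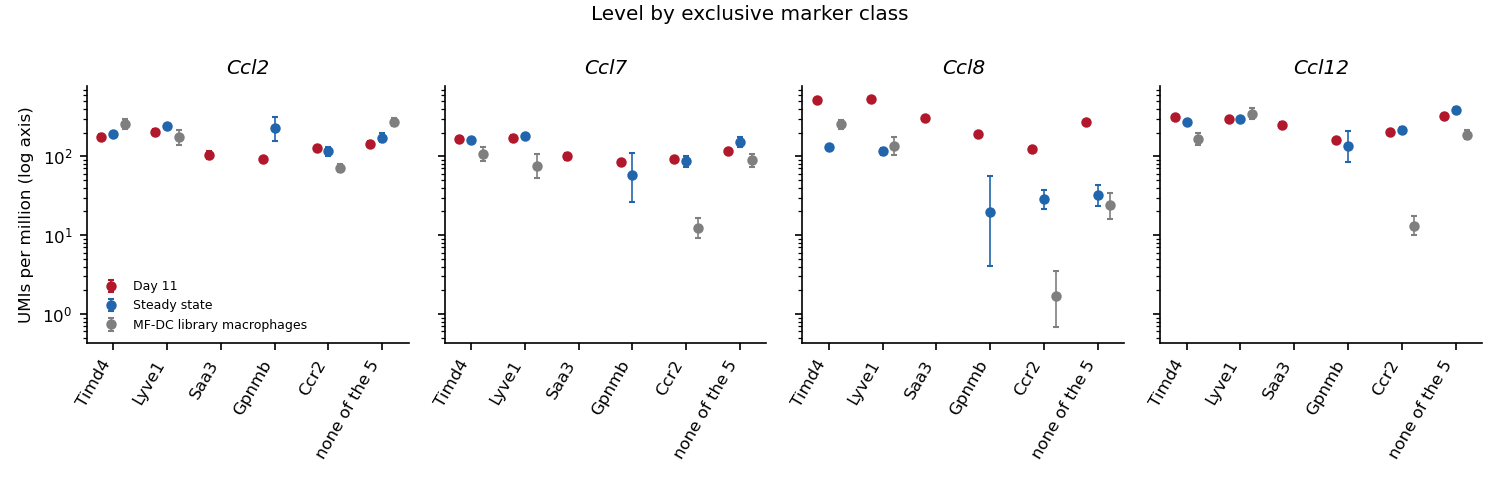
Level of each ligand in CPM (log axis) in exclusive marker classes with at least 10 cells, at day 11, at steady state and in the macrophages of the MF-DC library, from left to right; bars are exact 95% counting intervals. Day 11 points of Ccl8 lie above the steady-state points in each class shown for both, while those of Ccl2, Ccl7 and Ccl12 mostly lie close together.

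Clusters, which were made without the 4 ligands, placed Ccl8 in 2 groups of cells. A cluster of 764 day 11 cells led by Saa3 and by Col3a1, Dcn and Sparc, genes of matrix-forming fibroblasts, held Ccl8 at 745 CPM. It was 17.5% of day 11 macrophages and held 62.7% of their Ccl8 UMIs, and it had 16 cells at steady state. Without this cluster the ratio of Ccl8 at day 11 over steady state was 1.10, against 2.29 with it. The resident macrophage-like cluster, in which haemoglobin genes came first and Lyve1, Vsig4, Timd4 and Folr2 followed, held Ccl8 at 637 CPM in 218 day 11 cells and 167 CPM in 852 steady-state cells, a ratio of 3.81 (3.55 to 4.10) that was 2.45 without the top 1% of cells. At steady state that resident cluster was 50.5% of cells and held 76.4% of Ccl8 UMIs, and 1 day 11 cell in it held 514 Ccl8 UMIs.

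Outside the Saa3-led cluster, all 4 ligands at day 11 followed the resident markers more closely than inside it, and Ccl8 the most. No share over all genes was computed for these contrasts. Outside, Ccl8 stood at 511 CPM in Timd4-positive cells and at a ratio of 5.71 (5.34 to 6.10) to Timd4-negative cells, and the ratio for Lyve1 was 4.74 (4.45 to 5.06). The cell with 514 Ccl8 UMIs is among these: without it the ratios were 3.52 for Timd4 and 3.22 for Lyve1, and without the top 1% of cells 2.43 and 2.80. Inside, the ratios of Ccl8 were 0.66 (0.61 to 0.72) for Timd4, 1.04 (0.98 to 1.09) for Lyve1 and 0.58 (0.54 to 0.61) for Saa3 itself. Without the top 1% of cells they were 0.62, 0.80 and 0.78, and without the 1 top cell 0.72, 1.17 and 0.63. For Timd4 and Lyve1, Ccl7 gave 2.225 and 2.26 outside, against 0.57 and 1.23 inside. Ccl2 gave 1.69 and 1.96 outside, against 0.75 and 1.32 inside. Ccl12 gave 1.61 and 1.44 outside, against 0.86 and 1.19 inside. Ccr2-positive cells inside the cluster still held Ccl8 at 618 CPM, against 86.0 CPM outside it. The difference between inside and outside was not tested, since cells are not replicates.

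Because fibroblast genes lead that cluster, their UMIs were counted beside the ligands. All 7 fibroblast markers were detected in the macrophages of both libraries, at 333 CPM in sum at day 11 and 248 CPM at steady state. Over the classes compared between libraries the sum ran from 215 to 438 CPM at day 11 and from 214 to 577 CPM at steady state, with Pdgfra at 0 in the Timd4 class of day 11 and the Ccr2 class of steady state. In the Saa3-led cluster, Ccl8 stood at 446 CPM in the 148 cells with no fibroblast-marker UMI and at 787 CPM in the other 616. Outside it, Ccl8 stood at 320 CPM in the 532 cells with none and at 102 CPM in the other 3062. The cell with 514 Ccl8 UMIs was among those 532, so this difference rests in part on 1 cell. All 680 day 11 cells with none, inside and outside the cluster, held 1534 Ccl8 UMIs together. Values without that cell were not computed for this split. Over all cells with none, the ratio of day 11 to steady state was 2.10 for Ccl8, from 352 CPM in 680 cells at day 11 and 167 CPM in 244 cells at steady state. The same cells gave 0.70 for Ccl2 and 0.82 for Ccl12, but 1.20 for Ccl7, against 0.70 over all cells.

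Ccl8 was low in 5 other clusters of more than 100 day 11 cells. At day 11 it stood at 46.0 CPM in a cluster of 836 cells led by Cxcr3, at 51.2 CPM in the Gpnmb macrophage-like cluster of 680 cells, at 46.6 CPM in a cluster led by Cxcl3 and Arg1, at 58.8 CPM in one led by Mmp13 and at 39.0 CPM in one led by Cd207. Thinned shares there ran from 6.59% to 10.8%. The lymphoid cluster, which carried macrophage genes, had 3 of 27 thinned cells (11.1%, 2.35 to 29.2), so background and expression cannot be told apart in these shares. A cluster of 371 cells led by Rapsn, which had no cell in the other libraries, held 228 CPM, the monocyte-like cluster 204 CPM and the cell-cycle cluster 170 CPM.

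Ccl2, Ccl7 and Ccl12 were highest in the interferon-response-like cluster, led by Rsad2, Ifit2 and Ifit1. Its 109 day 11 cells held Ccl12 at 2042 CPM (1956 to 2130), Ccl2 at 659 CPM (611 to 710) and Ccl7 at 492 CPM (451 to 537), but Ccl8 at 211 CPM (184 to 241). They were 2.50% of day 11 macrophages and held 22.1% of Ccl12 UMIs, 12.8% of Ccl2, 11.5% of Ccl7 and 2.08% of Ccl8. A UMI of Ccl12 was found in 69.4% of the thinned cells, with 9.41 UMIs per positive cell. At steady state this cluster had 9 cells, with Ccl12 at 2632 CPM (2325 to 2969). Without the cluster, day 11 over steady state was 0.62 for Ccl2, 0.64 for Ccl7, 0.70 for Ccl12 and 2.30 for Ccl8.

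The low end for these 3 ligands was the Gpnmb macrophage-like cluster and the Cxcr3-led cluster. In the first, day 11 cells held Ccl2 at 36.4 CPM, Ccl7 at 26.1 CPM and Ccl12 at 52.8 CPM, and in the second 63.3, 27.3 and 79.1 CPM. The first was 15.6% and the second 19.2% of day 11 macrophages, and they had 9 and 4 cells at steady state. Clusters present in both libraries did not move one way. In the resident-like cluster the ratios of day 11 to steady state were 1.59 for Ccl2, 1.53 for Ccl7 and 1.19 for Ccl12, and without the top 1% of cells 0.98, 1.13 and 1.32. In the Mmp13-led cluster of 548 day 11 and 407 steady-state cells they were 0.97, 0.715 and 1.17, and in the monocyte-like cluster of 100 and 98 cells 0.54, 0.49 and 0.58. The Cd207-led cluster gave 0.51, 0.59 and 1.53. The cell-cycle cluster gave 1.20, 1.42 and 1.19, and 0.79, 0.84 and 0.65 without the top 1% of cells. Under this alternative Ccl2 was below 1 in each of these clusters, at 0.84 in the Mmp13-led, 0.70 in the monocyte-like and 0.66 in the Cd207-led cluster.

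**Figure D4:**
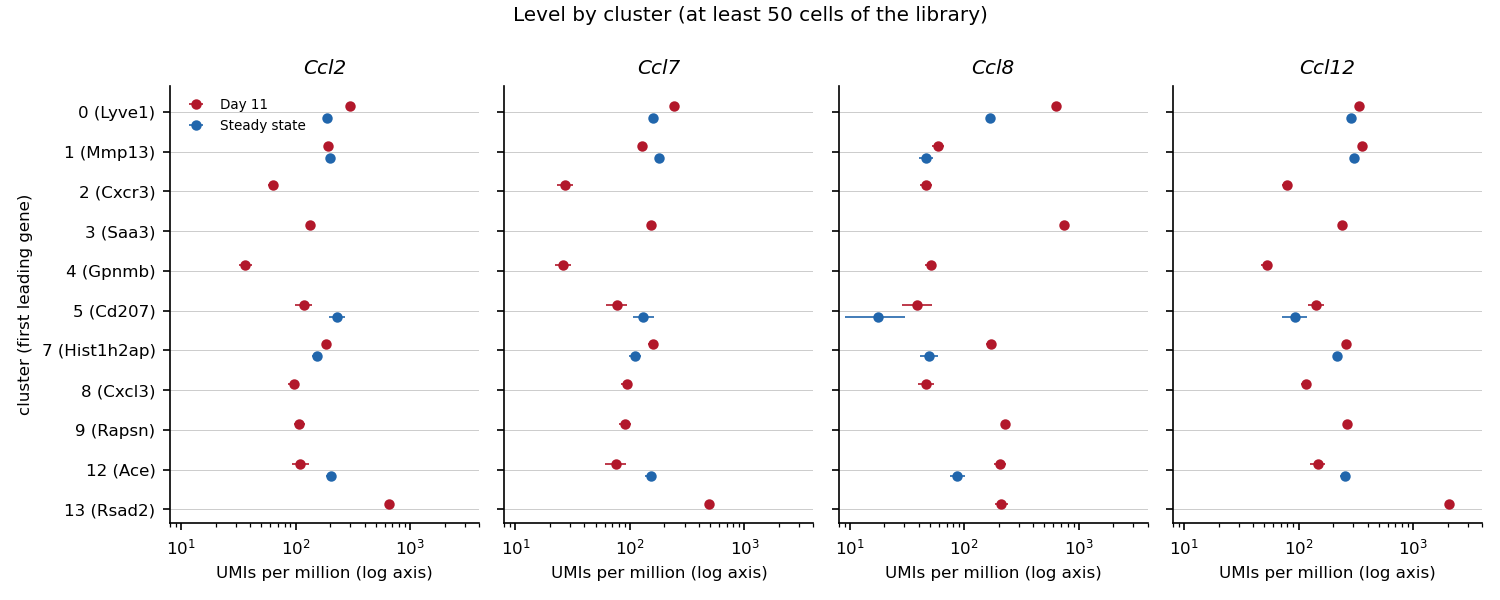
Level of each ligand in CPM (log axis) by macrophage cluster, at day 11 and at steady state, for clusters with at least 50 cells of that library; each cluster is named by its number and a leading gene, and bars are exact 95% counting intervals. Ccl8 peaks in clusters 3 and 0, at 745 and 637 CPM at day 11, and the other 3 ligands in cluster 13, the interferon-response-like one.

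Ccl2 and Ccl7 had the highest odds ratio of being found in 1 cell in both reporter libraries, and pairs with Ccl8 had the lowest. The pair found in the most thinned cells was Ccl2 with Ccl12, the 2 most widely detected ligands, in 349 cells (8.15%) at day 11 and 242 (14.4%) at steady state, against 270 (6.31%) and 170 (10.1%) for Ccl2 with Ccl7. At day 11 a UMI of Ccl7 was found in 31.7% (28.5 to 34.9) of thinned cells with Ccl2, against 9.07% (8.13 to 10.1) of cells without it, an odds ratio of 4.64 (3.84 to 5.61). At steady state the shares were 31.3% (27.4 to 35.4) and 17.5% (15.3 to 19.8), an odds ratio of 2.15 (1.68 to 2.74). The pairs of Ccl12 with Ccl7 and with Ccl2 gave odds ratios of 3.57 and 2.74 at day 11 and of 1.76 and 1.83 at steady state. At day 11 the interval of Ccl12 with Ccl7 (2.96 to 4.29) overlapped with that of Ccl2 and Ccl7. At steady state the intervals of both pairs did (1.38 to 2.24 and 1.47 to 2.27). Pairs with Ccl8 were lower: 1.39 with Ccl2, 2.02 with Ccl7 and 1.89 with Ccl12 at day 11, and 1.39, 1.31 and 1.17 at steady state, where the intervals of the last 2 pairs (0.95 to 1.79 and 0.88 to 1.55) included 1. Pearson's r of the log UMIs over thinned cells, as a description of cells that share a library and free RNA, was 0.45 for Ccl2 and Ccl7 and 0.04 for Ccl2 and Ccl8 at day 11, and 0.32 and 0.03 at steady state.

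The pairing of Ccl2 with Ccl7 was found within marker classes and clusters. Over the 6 classes at day 11 its odds ratio ran from 2.96 in the Timd4 class to 5.02 in the Ccr2 class, and over 4 classes at steady state from 1.89 to 2.82. It was not the highest pair in every class. At day 11, Ccl7 with Ccl12 stood above it in the Timd4 class, at 3.58, and in the Saa3 class, at 4.89 against 3.28. At steady state, Ccl2 with Ccl8 stood above it in the Ccr2 class, at 4.51 from 5 cells with both, against 2.10. Ccl2 with Ccl12 did so with none of the markers, at 2.76 against 2.29. Over 11 clusters at day 11 it ran from 2.38 to 5.50, and over 5 at steady state from 1.41 to 3.60. It was 4.43 at day 11 without the interferon-response-like cluster. When 2 UMIs were required for detection, it was 12.0 at day 11 and 8.25 at steady state, while that of Ccl2 and Ccl8 was 0.95 at day 11. In the MF-DC library the odds ratio of Ccl2 and Ccl7 was 7.50 (4.09 to 13.9), which overlapped with the 7.41 (2.81 to 18.0) of Ccl7 and Ccl8.

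Cells with many ligands were more frequent than independent detection would give. All 4 were found in 44 of 4281 thinned cells at day 11 (1.03%), against 0.11% from the product of the single shares, and in 21 of 1686 at steady state (1.25%), against 0.38%. None of the 4 was found in 51.8% of cells at day 11 and 34.5% at steady state, and exactly 1 in 28.7% and 36.5%.

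**Figure D5:**
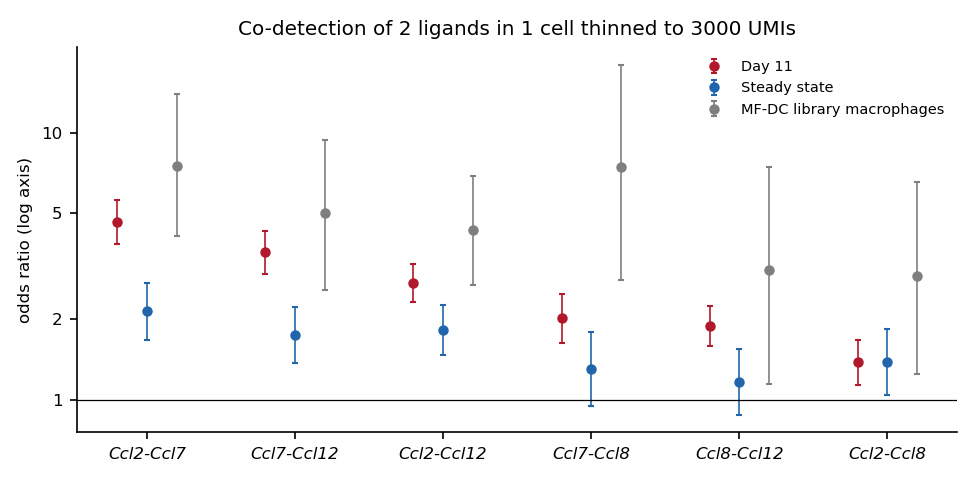
Odds ratio of finding 2 ligands in 1 macrophage thinned to 3000 UMIs (log axis) for the 6 pairs at day 11, at steady state and in the macrophages of the MF-DC library, from left to right; bars are exact 95% counting intervals and the line marks 1. Ccl2 with Ccl7 stands at 4.64 at day 11 and 2.15 at steady state, and the pairs with Ccl8 lie lower in both libraries.

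Among all genes with at least 20 CPM, the members were each other's closest companions, except Ccl8. Over macrophages of each of the 3 libraries, as a description of cells that share a library and its depth, the gene with the highest Pearson r to Ccl2 was Ccl7 and the next was Ccl12, out of 4695 genes at day 11, 4916 at steady state and 4129 in the MF-DC library. The r of Ccl2 and Ccl7 was 0.51 at day 11 and 0.47 at steady state. Pf4, a platelet-type chemokine, and Marcksl1 came next for Ccl2 at day 11, at 0.25 and 0.24, and Ccl3 and Marcksl1 at steady state, at 0.21 and 0.18. For Ccl12 at day 11, Ifit3 and Isg15, both interferon-induced, were the 4th and 5th genes, at 0.29 and 0.27.

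Ccl8 had other companions. At day 11 they were Folr2, a folate receptor (r 0.34), Gas6, a ligand for receptors that clear dead cells (0.31), Mrc1, the mannose receptor (0.30), Sepp1, a selenoprotein (0.29), and C4b, a complement component that was also a leading gene of the Saa3-led cluster (0.29). At steady state Wfdc17 (0.31), Folr2 (0.28), Ninj1 (0.27) and the cathepsins Ctsb (0.27) and Ctsd (0.25) came first. Ccl2 ranked 345th for Ccl8 at day 11 and 549th at steady state, Ccl7 62nd and 115th, and Ccl12 64th and 211th. Folr2 itself was lower at day 11, at 277 CPM, against 1128 CPM at steady state, while Ccl8 was higher.

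Gene lists were then compared between cells with and without a UMI of each ligand. Of the interferon response list, 7 of 11 genes were at least 2-fold higher in day 11 cells with Ccl2, 7 of 11 with Ccl7 and 7 of 11 with Ccl12, with medians of 1.35, 1.36 and 1.74 on the log2 scale. Of all genes tested 0.289%, 0.399% and 0.463% were at least 2-fold higher, with medians of 0.05, 0.05 and 0.04. Genes with at least 20 CPM on either side were counted, so a gene could enter through the ligand-positive cells alone, where it is high. In the comparison of day 11 with steady state, 9 of the 11 interferon genes passed this level. These counts are thus a description. Without the interferon-response-like cluster the counts were 1 of 6, 1 of 7 and 1 of 6, where 0.0383%, 0.305% and 0.135% of all genes were higher, and the medians 0.31, 0.20 and 0.78. Cells with Ccl8 had 1 of 10 such genes higher and a median of -0.13. They had instead 6 of 15 resident macrophage genes higher, with a median of 0.85, where 0.669% of all genes were, and cells with Ccl7 had 3 of 13, with a median of 0.72. At steady state the counts were lower: of the 15 resident macrophage genes 0 passed 2-fold in cells with Ccl8, and their median was 0.42, where 0.511% of all genes passed it. Of the interferon response list 2 of 10 genes were higher there with Ccl2, 2 of 10 with Ccl7 and 1 of 9 with Ccl12, where 0.129%, 0.167% and 0.148% of all genes were. Of the immediate early genes none of 11, and of the NF-kB and inducible feedback genes none of 14, reached 2-fold in day 11 cells with any of the 4 ligands, with medians between -0.06 and 0.34.

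Around the members, some receptors and the neighbouring chemokines were measured in the same comparison. Ccr2 stood at 252 CPM at day 11 and 177 CPM at steady state, a ratio of 1.42 (1.37 to 1.48), and Ccr1 at 57.3 CPM at day 11 and 59.8 CPM at steady state. Neither of these receptors passed 2-fold, and Ccr8 had 1 UMI in all at day 11 and 0 at steady state. Of 5 neighbouring chemokine genes above 20 CPM, 1 was at least 2-fold higher, Ccl5, which attracts lymphocytes, at 50.3 CPM at day 11 and 12.3 CPM at steady state, a ratio of 4.10 (3.61 to 4.67). Ccl11, which lies between Ccl7 and Ccl12, had 0.02 CPM at day 11 and 0.09 CPM at steady state. The resident macrophage list had 8 of 15 genes lower by 2-fold or more at day 11 and 0 higher, with a median of -1.03 on the log2 scale, against -0.06 over all genes. Of the NF-kB list 1 of 14 was higher, Il1b, a cytokine, at 216 CPM at day 11 and 93.02 CPM at steady state. Of 9 interferon response genes and 11 immediate early genes none passed 2-fold in either direction. Over all genes 1.63% were higher and 2.63% lower. Against the MF-DC macrophages, 4 of 9 interferon response genes were higher, where 5.9% of all genes were. None of 14 NF-kB genes and none of 5 neighbouring chemokines were higher there, and 2 neighbours were lower. Of 15 resident macrophage genes 1 was higher and 4 lower, where 2.77% of all genes were lower. Their median was 0.20, equal to that over all genes.

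Of the 4 members, 2 matched the promoter table by symbol, the neighbours Ccl12 and Ccl8, which had their highest levels in different clusters. The 150 bases before each gene's start (RefSeq, GRCm38.p6) are shown for Ccl12, chr11:82101695-82101844, and Ccl8, chr11:82115035-82115184, both on the forward strand, with matches to TATAAAA and GGAAAT in capitals.
Ccl12: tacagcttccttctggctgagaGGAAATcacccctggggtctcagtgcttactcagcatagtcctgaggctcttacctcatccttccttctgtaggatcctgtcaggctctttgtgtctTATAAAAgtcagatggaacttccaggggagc
Ccl8: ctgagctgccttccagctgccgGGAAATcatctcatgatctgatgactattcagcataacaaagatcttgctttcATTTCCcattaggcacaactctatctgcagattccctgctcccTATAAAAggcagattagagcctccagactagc
Motifs were searched on both strands from 250 bases before to 50 after the start. TATAAAA, the core of a TATA box, began 31 bases before the start of Ccl12 and 32 before that of Ccl8, and 5.48% of 32851 promoters of the same length held it. GGAAAT began 128 bases before the start in both, with a second match in Ccl8 on the reverse strand, and 17.7% of promoters held it. Neither window held the interferon-stimulated response element motif (3.44% of promoters) or the NF-kB site motif (8.46%), each searched by its consensus on both strands. A match or its absence in these windows describes letters and not binding.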

How the data were processed

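The authors deposited raw UMI counts per gene and barcode for 3 libraries, made with Cell Ranger and STAR on mm10 per the submitters' processing notes (versions not given in the sources used here). Nothing in the labels says how the barcodes were called. The members and gene lists were chosen with earlier results of these data known. Barcodes with at least 500 genes and at most 10% mitochondrial UMIs were kept. Doublets were scored with Scrublet (scanpy 1.11.5) and the 175, 25 and 25 highest scores of the day 11, steady-state and MF-DC libraries removed, in number 0.8% per 1000 cells. Its automatic threshold marked 2, 0 and 4 and had not worked at day 11 and steady state. Cells were clustered together without integration and without the 4 members (2000 variable genes, 30 components, 15 neighbours, Leiden 0.10.2 at resolution 1.0), giving 18 clusters, 9 of them named where 1 class of the listed markers gave 3 or more of the 10 leading genes. DC-, lymphoid- and endothelial-like clusters were set outside the compartment, and cell names rest on rebuilt clusters.

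CPM is the UMIs of a gene over all UMIs of the summed cells. Ratios have exact conditional intervals, shares Clopper-Pearson intervals, and a 0 was set to 3 counts per group of cells. Genes with at least 20 CPM on either side were compared, and called means at least 2-fold. Marker-positive means at least 1 UMI. Named genes were the members, the 5 genes with the highest r to each (at least 50 positive cells; mitochondrial, ribosomal, sex-linked and unnamed genes left out) and the fixed lists. Ratio calls, thinning, co-detection and likeness were tested on simulated data.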

Additional observations from a re-analysis of the deposited data

Results flagged for a closer look

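Marker contrasts of 2 ligands had intervals on opposite sides of 1 in different libraries, and the differences were not tested. Ccl12 in Timd4-positive over Timd4-negative cells was 1.37 (1.29 to 1.45) at day 11 and 0.94 (0.89 to 0.99; 0.937) at steady state, and 2.16 (1.77 to 2.62) in the MF-DC library; with at least 2 UMIs of Timd4 required, the steady-state ratio was 1.07. Ccl8 in Gpnmb-positive over Gpnmb-negative cells was 1.13 (1.09 to 1.18) at day 11 and 0.76 (0.63 to 0.91; 0.758) at steady state; with at least 2 UMIs of Gpnmb these were 0.92 and 1.13.

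Ccl8 was also seen outside the macrophage compartment: the 97 cDC2-like cells of the day 11 library held it at 154 CPM (133 to 178), against 84.9 CPM from 18 UMIs in 11 cDC2-like cells of the steady-state library and 0 UMIs in 326 of the MF-DC library, which allows up to 1.31 CPM. A UMI was found in 27.8% of the day 11 cells, or 15.6% when thinned, against 41.9% and 11.1% in the lymphoid cluster of the same library, which held Ccl8 at 84.4 CPM and carried macrophage genes, so free RNA cannot be told apart from expression. In the same day 11 cells Ccl2 stood at 23.0 CPM, Ccl7 at 27.3 CPM and Ccl12 at 35.8 CPM, well under their levels in day 11 macrophages.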

How the results depend on the processing

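The level of Ccl8 at day 11 stayed above steady state under each of 13 alternatives, but below 2-fold in 3: 1.72 without the top 1% of cells, 1.10 without the cluster led by Saa3 and fibroblast genes and 1.12 as a ratio of shares of thinned cells with a UMI. It was 2.19 as a mean over cells, 2.10 without cells with a fibroblast-marker UMI and 2.18 without the cell-cycle cluster. Ccl2 and Ccl12 stayed lower than in the steady-state library and Ccl7 turned to 1.20 without cells with a fibroblast-marker UMI. For Ccl2, Ccl7 and Ccl12 the ratios were 0.649, 0.643 and 0.802 with no cell filter, 0.6002, 0.614 and 0.792 without the top 1%, 0.621, 0.644 and 0.706 without monocyte- and interferon-response-like clusters, 0.615, 0.640 and 0.704 without the interferon-response-like cluster, 0.650, 0.656 and 0.817 without the cell-cycle cluster, and 0.619, 0.618 and 0.693 as shares. Ccl7 was 0.650 with no doublet removal, 0.671 as a mean over cells and 0.624 without the Saa3-led cluster, and Ccl12 was 0.876 with median-of-ratios scaling, which shifted all values by -0.05 on the log2 scale. Against the macrophages of the MF-DC library Ccl2, Ccl7, Ccl8 and Ccl12 were 0.9503, 2.56, 5.57 and 2.68, and 0.718, 1.68, 3.52 and 1.70 without its Retnla and Ear2 cluster. The causes were not tested.

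Ccl8 in Timd4-positive over negative cells at day 11 was 1.46 with 2 marker UMIs, 2.31 as a mean over cells, 2.02 with no doublet removal and 1.47 without the top 1%; at steady state it was 2.10 with status from thinned cells and 2.07 as a mean over cells. For Lyve1 it was 1.51 at day 11 and 1.57 at steady state with status from thinned cells, and 1.94 and 1.83 without the top 1%. Over all 48 marker ratios, 25 of 240 alternative values lay on the other side of 1 and 30 moved by over 1.5 times. The odds ratio of Ccl2 and Ccl7 at day 11 was 5.63 at 2000 UMIs, 12.0 with 2 UMIs for detection, 2.96 in the Timd4 class and 3.28 in the Saa3 class; at steady state it was 3.49 with no thinning, 8.25 with 2 UMIs and 2.82 in the Lyve1 class. Over all pairs and libraries, 7 values of 5 odds ratios lay on the other side of 1, each of a pair with Ccl8, such as Ccl7 with Ccl8 at 0.531 in the steady-state Ccr2 class. In the MF-DC library 2 pairs past 2-fold turned: Ccl2 with Ccl8 to 0.820 in the Lyve1 class and Ccl8 with Ccl12 to 0.927 in the Timd4 class.

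No paired analysis was possible because each group had 1 library. The added alternatives (fibroblast UMIs, the single clusters, shares, the top cells within classes and around the Saa3-led cluster) were chosen after seeing the data. Depth limits marker status, since positive cells were deeper than negative cells, and intervals leave out the spread between animals and cells.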
